A study of Bos taurus with 48 samples.

Results

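The comparison covered 20 of the 44 samples of the study, namely caruncular and intercaruncular endometrium of the 10 non-pregnant, cycling cows. These samples were taken by their labelled reproductive state and tissue, and the tissues were paired within cow by the animal number in the sample name. Cows are named here by N (not pregnant) or P (pregnant) and this number. The study sampled the endometrium of 22 cows with synchronised oestrous cycles, which were slaughtered on day 17 of the reproductive cycle. The other 12 cows, which were pregnant, had received an embryo on day 7. Their labels class each as fertile or sub-fertile (cow P9790 as sub-fertile), a class that was not used here. They enter here where a tissue difference is set beside that of the cyclic cows. The cyclic cows received no embryo, and the labels give no further treatment, breed or age for them.

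Caruncles are raised, largely gland-free areas of the ruminant endometrium to which the cotyledons of the placenta attach in pregnancy. The intercaruncular endometrium between them carries the uterine glands, whose secretions feed the conceptus before attachment. Both areas are lined by luminal epithelium and hold stromal fibroblasts, vessels and immune cells, in different proportions. The comparison asks which genes distinguish them in the absence of an embryo. Since the samples were pieces of whole tissue, fewer cells of a type and less RNA per cell cannot be told apart.

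Samples carried the red dye on 2-colour oligonucleotide arrays and were read against 1 pool in green, made from equal amounts of the 44 samples. Values are log2 ratios of sample to pool, so that 0 is the level of the pool. The 3 caruncular samples of cows N9778, N9813 and N9960 were hybridised again, which gave 13 caruncular and 10 intercaruncular arrays, and both arrays of such a sample were averaged. A median of 72.0% of the spots was well above background in caruncular samples (range 69.3 to 76.1) and 70.0% in intercaruncular samples (68.8 to 76.1). This share did not differ past the spread between cows (mean difference 1.36 ± 3.57 percentage points, SD, n = 10, p = 0.270 by a two-sided exact sign-flip permutation test). The share was higher in caruncular tissue in 8 of 10 cows, while cow N9786 had 69.4% in caruncular and 76.1% in intercaruncular tissue. The median signal over background was 21.4 in caruncular samples (17.0 to 25.05) and 11.7 in intercaruncular samples (8.08 to 24.4). It was higher in caruncular tissue in 9 of 10 cows (mean difference 8.78 ± 5.13, SD, p = 0.00391 by the same test). The exception was cow N9786, at 20.7 in caruncular and 24.4 in intercaruncular tissue, whereas the other 9 intercaruncular samples lay between 8.08 and 15.8. Spots with a saturated red signal were marked on a single slide, in the caruncular arrays of cows N3811 (567), N2970 (427), N9778 (153) and N9813 (4). Cow N9778 also had the largest shares of spots marked as irregular, 7.60% in caruncular and 5.08% in intercaruncular tissue.

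The tissues lay on different slides and were scanned on different days. The intercaruncular arrays of 9 cyclic cows were scanned on day 1 and the caruncular arrays of the same 9 cows on day 2. Day 3 held the repeat arrays and both tissues of cow N9786, which shared 1 slide. One pregnant cow, P9790, likewise had both tissues on 1 slide of day 3, with a signal over background of 29.7 in caruncular and 29.2 in intercaruncular tissue. Its shares of spots above background were 82.4% in caruncular and 84.0% in intercaruncular tissue. In both measures its arrays lay above every other array of the series. In the other 9 cyclic cows tissue and scan day cannot be told apart. For this reason the genes named by rule and the gene lists are given beside the difference within the pair of cow N9786 and, as a pair from an animal of the other state, that of cow P9790. Both are called within-slide differences here and are single values without a spread of their own.

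The repeated caruncular samples show how far 2 arrays of the same sample differed between days 2 and 3. The sample names mark the second array only as a repeat and do not say whether RNA or labelling was made anew. Over the probes tested, the SD of the difference between the first and the repeat array was 0.104 in cow N9813, 0.121 in cow N9960 and 0.148 in cow N9778 on the log2 scale, and 0.102 in the repeated sample of pregnant cow P926. In these cows the SD of the difference between the tissues was 0.608, 0.594, 0.685 and 0.737. Across the 4 repeated samples limma called 0 of 14714 probes (0%) at 1.5-fold with an adjusted p under 0.05. Without a minimum fold 16 had an adjusted p under 0.05 and 4163 had an unadjusted p under 0.05, and 17 probes differed by 1.5-fold on average. No intercaruncular sample was hybridised more than once, so day 1 has no such check. Cow N9786 stood apart from the other cows in both tissues. On the second principal component, with 23.8% of the variance, its samples lay at -78.8 (caruncular) and -59.0 (intercaruncular), while the other 18 samples lay between -24.1 and 20.4. Counts are therefore also given without this cow, and of the genes named by rule BLNK and MASP1 lost their call when it was left out.

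Of 14717 probes tested, 1947 (13.2%) differed between the tissues of cyclic cows by at least 1.5-fold with a Benjamini-Hochberg adjusted p under 0.05 (limma, cow as a block). Of these, 1106 (7.52%) were higher and 841 (5.71%) were lower in caruncular tissue. Their median sizes were 1.77-fold and 1.72-fold, and the median difference over all probes tested was -0.017 (log2, caruncular minus intercaruncular, as for every difference here). Values in all 10 cows were present for 1852 of the 1947, of which 319 were higher and 299 lower in each of the 10 cows. Without cow N9786 the count rose to 2314 (15.7%), of which 1325 were higher and 989 lower. With the slide as a random block 1847 probes passed. With the scan day as a block 152 passed, 72 higher and 80 lower, and this fit takes each difference from cow N9786 alone.

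The direction of these differences held in most cows and less often within slides. When each cyclic cow was set against the calls of the other 9, the share of probes with the same direction was 84.1% to 100% among those higher in caruncular tissue and 70.6% to 100% among those lower, in the 9 cows with their tissues on different slides. In cow N9786 it was 39.4% (522 of 1325) and 63.2% (617 of the 976 with a value), with a median difference of -0.12 in the probes called higher and -0.22 in those called lower. Pregnant cow P9790, set against the calls of the 10 cyclic cows, kept the direction of 49.8% of the higher and 75.4% of the lower probes, while the other 11 pregnant cows kept 95.6% to 99.0% and 87.5% to 98.2%. The lowest shares of the remaining cyclic cows belonged to cows N1940 and N9960. The part of scan day, slide and signal over background in this pattern was not tested.

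**Figure D1:**
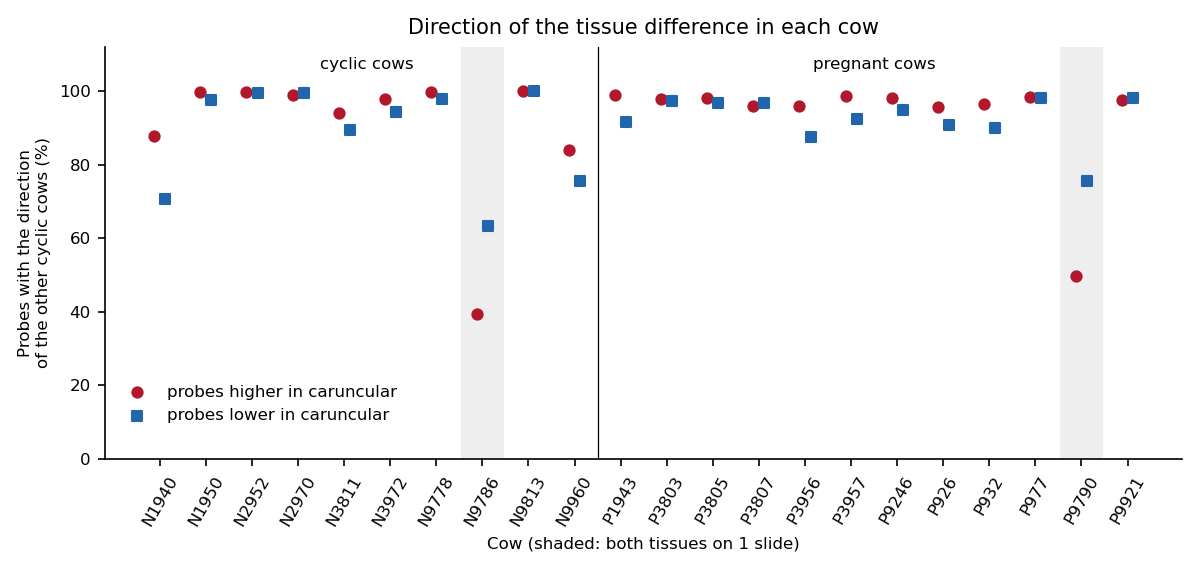
Share of probes (%) whose caruncular minus intercaruncular difference had the same direction in a cow (x axis) as the calls of the other cyclic cows; circles are probes called higher and squares probes called lower in caruncular tissue, and shading marks the cows with both tissues on 1 slide. The shaded cows, cyclic cow N9786 (39.4% and 63.2%) and pregnant cow P9790 (49.8% and 75.4%), have the lowest share of higher probes in their state.

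The probes fell into classes that recurred in the second within-slide pair. Of the 2314 probes called in the 9 cows, 499 also differed by at least 1.5-fold in the same direction in cow N9786, 172 higher and 327 lower in caruncular tissue (a count made after these values were seen). In cow P9790, which the choice did not use, 95.9% of the 172 and 95.1% of the 327 had the same direction. Of the 803 higher probes with the opposite direction in cow N9786, 28.3% kept the direction of the 9 cows in cow P9790, and of the 356 lower ones 38.5%. In all, 367 probes (134 higher, 233 lower) kept 1.5-fold and direction in both pairs, and 795 (576 higher, 219 lower) had the opposite direction in both.

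**Figure D2:**
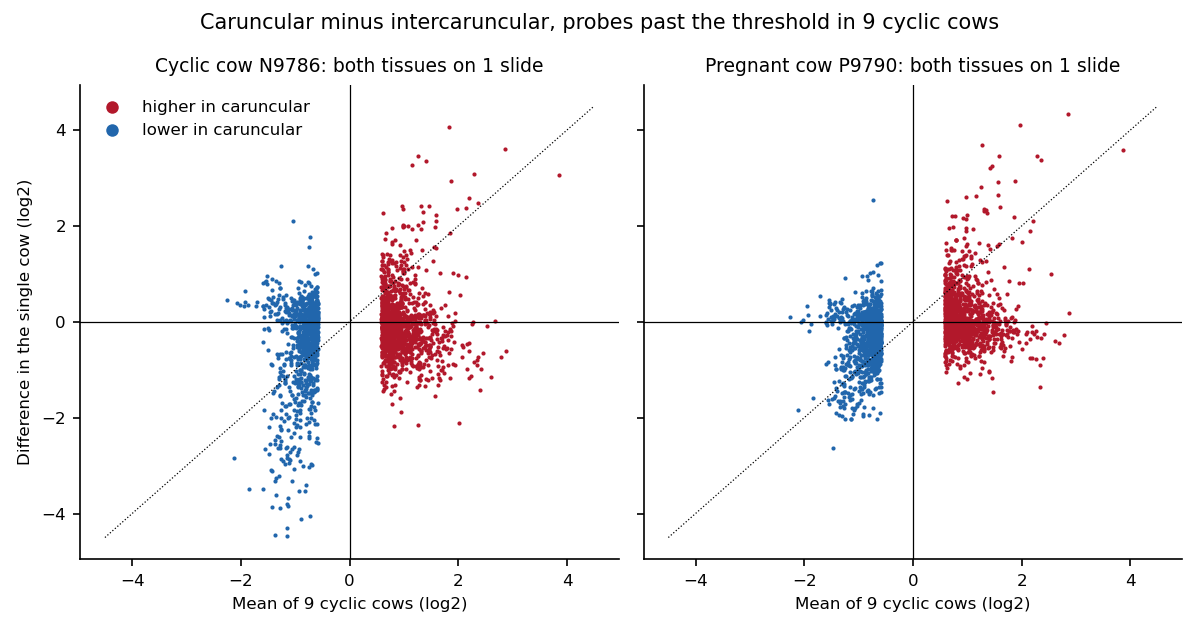
Caruncular minus intercaruncular difference (log2) of the probes called in 9 cyclic cows and measured in both pairs: mean of the 9 cows on the x axis, and the single difference in cow N9786 (left) or pregnant cow P9790 (right) on the y axis, with red for probes higher and blue for probes lower in caruncular tissue. Points along the dotted line of equality kept their size within the slide, and the points near or across 0 on the y axis include the 795 probes with the opposite direction in both pairs.

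The rule for naming genes took the 10 largest differences in each direction among 441 genes (213 higher, 228 lower) past the threshold with 1 direction in every cow with a value and a signal above background in at least 5 cows of each tissue. Since cow N9786 was among the cows held to 1 direction, its direction in these 20 genes was set by the choice, and of the within-slide pairs cow P9790 alone gives a direction that the choice did not use. Those higher in caruncular tissue are given first. After the difference of a gene, here and below, ± gives its standard error. RIMS1, known for its role in synaptic vesicle release, had log2 ratios of -3.06 to 2.78 (median 1.12) in caruncular and -3.76 to -1.88 (median -2.78) in intercaruncular tissue. It was 13.7-fold higher in caruncular tissue (difference 3.78 ± 0.45, adjusted p = 0.000158 by limma, 10 of 10 cows), and cow N3811 held the lowest caruncular value, which makes the groups overlap. TNC, tenascin C, a matrix glycoprotein of remodelling stroma, ranged from -0.93 to 2.85 (median 1.06) in caruncular and -3.31 to -0.76 (median -1.98) in intercaruncular tissue. Its difference was 7.65-fold (difference 2.93 ± 0.41, adjusted p = 0.000269 by limma, 10 of 10 cows), smallest in cows N1940 and N3811. COL4A6, a basement membrane collagen chain, measured -1.79 to 2.73 (median 1.34) in caruncular and -2.03 to -0.35 (median -1.29) in intercaruncular tissue and was 5.15-fold higher (difference 2.37 ± 0.32, adjusted p = 0.000250 by limma, 10 of 10 cows). Again cows N1940 and N3811 lay lowest, at 0.24 and 0.27 against 2.24 or more in the other cows. The within-slide differences in cows N9786 and P9790 were 3.06 and 3.58 for RIMS1, 3.61 and 4.34 for TNC and 3.08 and 3.45 for COL4A6.

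GJA1, connexin 43, which forms gap junctions between stromal cells, ranged from -0.47 to 2.87 (median 0.94) in caruncular and -2.15 to 0.28 (median -1.39) in intercaruncular tissue and was 4.73-fold higher in caruncular tissue (difference 2.24 ± 0.21, adjusted p = 0.000120 by limma, 10 of 10 cows). CXCL14, a chemokine of epithelia and stroma, ranged from -2.21 to 2.91 (median 0.80) in caruncular and -2.29 to 0.050 (median -1.47) in intercaruncular tissue and was 4.14-fold higher (difference 2.05 ± 0.33, adjusted p = 0.000550 by limma, 10 of 10 cows). For PTN, pleiotrophin, a heparin-binding growth factor, the ratios were -1.07 to 1.37 (median 0.73) in caruncular and -1.93 to -0.99 (median -1.34) in intercaruncular tissue, and the gene was 3.62-fold higher (difference 1.86 ± 0.22, adjusted p = 0.000149 by limma, 10 of 10 cows). ITGA8, the integrin subunit of mesenchymal cells that binds matrix ligands, lay at -0.41 to 1.79 (median 0.74) in caruncular and -1.41 to -0.023 (median -0.87) in intercaruncular tissue and was 3.003-fold higher (difference 1.59 ± 0.20, adjusted p = 0.000182 by limma, 10 of 10 cows). In cow P9790 all 4 were higher in caruncular tissue. The within-slide differences were 2.59 and 2.11 for GJA1, 4.07 and 1.76 for CXCL14, 1.86 and 2.19 for PTN and 1.53 and 1.63 for ITGA8 in cows N9786 and P9790. FAM13B was 3.72-fold higher (difference 1.89 ± 0.24, adjusted p = 0.000182 by limma, 10 of 10 cows), with values of -1.18 to 0.94 (median 0.090) in caruncular and -2.24 to -1.09 (median -2.00) in intercaruncular tissue and within-slide differences of 0.97 and 1.67. Cow N1940 had the smallest difference in CXCL14, PTN and ITGA8.

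The remaining pair of genes behaved otherwise. WWTR1, which encodes the Hippo pathway coactivator TAZ, was 2.71-fold higher (difference 1.44 ± 0.16, adjusted p = 0.000129 by limma, 10 of 10 cows), from -1.05 to 1.06 (median 0.55) in caruncular and -1.56 to -0.57 (median -0.92) in intercaruncular tissue. TRPC1, a calcium-permeable channel subunit, was 2.68-fold higher (difference 1.42 ± 0.16, adjusted p = 0.000136 by limma, 10 of 10 cows), from -0.55 to 0.86 (median 0.58) in caruncular and -1.51 to -0.17 (median -0.88) in intercaruncular tissue. Their within-slide differences were 0.11 and 0.49 for WWTR1 and 0.20 and 0.34 for TRPC1, under 1.5-fold in both cows. For WWTR1 the caruncular sample of cow N9786 was the lowest of the 10, while the other 9 caruncular samples lay above all intercaruncular ones.

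**Figure D3:**
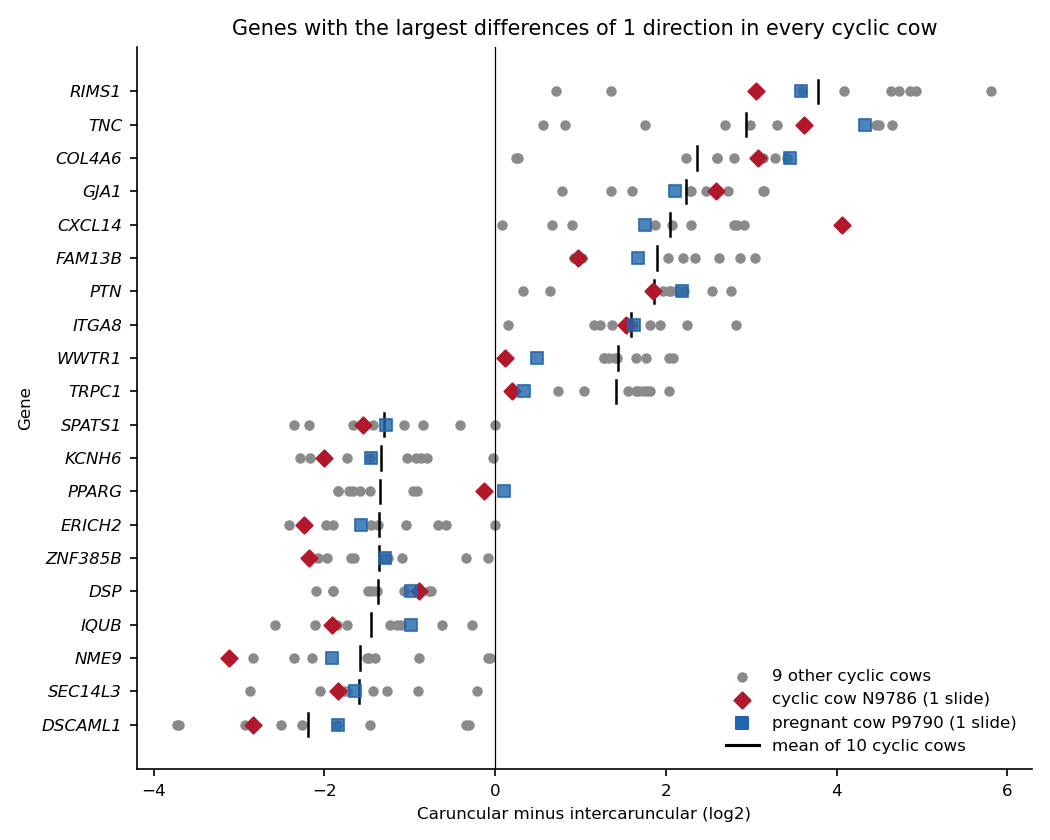
Caruncular minus intercaruncular difference (log2, x axis) of the 20 genes (y axis) with the largest differences of 1 direction in every cyclic cow: grey circles are 9 cyclic cows, red diamonds cyclic cow N9786, blue squares pregnant cow P9790 and black bars the mean of the 10 cyclic cows. For RIMS1, TNC, COL4A6 and most genes lower in caruncular tissue the within-slide pairs lie among or near the other cows, while for WWTR1, TRPC1 and PPARG they lie near 0.

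Of the 10 genes lower in caruncular tissue, DSCAML1 had the largest difference. DSCAML1, a cell adhesion molecule of the immunoglobulin family, ranged from -3.34 to -0.64 (median -1.79) in caruncular and -1.50 to 1.53 (median 0.39) in intercaruncular tissue and was 4.58-fold lower in caruncular tissue (difference -2.19 ± 0.34, adjusted p = 0.000391 by limma, 10 of 10 cows). NME9, a thioredoxin domain protein that binds microtubules, ranged from -3.67 to -0.27 (median -1.64) in caruncular and -1.49 to 1.23 (median -0.13) in intercaruncular tissue and was 3.01-fold lower (difference -1.59 ± 0.29, adjusted p = 0.00102 by limma, 10 of 10 cows). IQUB, a ciliary protein, lay at -2.03 to -0.34 (median -1.38) in caruncular and -0.69 to 1.11 (median 0.023) in intercaruncular tissue and was 2.75-fold lower (difference -1.46 ± 0.20, adjusted p = 0.000246 by limma, 10 of 10 cows). SPATS1, a gene named for its expression in spermatogenesis, was 2.47-fold lower (difference -1.31 ± 0.21, adjusted p = 0.000456 by limma, 10 of 10 cows), with -2.09 to -0.12 (median -0.88) in caruncular and -0.62 to 1.31 (median 0.13) in intercaruncular tissue. In each of these 4 genes cows N1940 and N9960 had differences nearer to 0 than the mean, for example -0.066 and -0.089 for NME9. In cow P9790 all 4 were lower in caruncular tissue. Their within-slide differences in cows N9786 and P9790 were -2.84 and -1.84 for DSCAML1, -3.12 and -1.91 for NME9, -1.92 and -0.99 for IQUB and -1.54 and -1.28 for SPATS1.

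DSP, desmoplakin, which anchors intermediate filaments at desmosomes, had ratios of -1.38 to 0.11 (median -0.56) in caruncular and 0.046 to 1.36 (median 0.79) in intercaruncular tissue and was 2.59-fold lower (difference -1.37 ± 0.14, adjusted p = 0.000124 by limma, 10 of 10 cows). The caruncular sample of cow N9786 alone reached above the lowest intercaruncular value, that of cow N9960. SEC14L3, a lipid-binding protein, was 3.01-fold lower (difference -1.59 ± 0.20, adjusted p = 0.000177 by limma, 10 of 10 cows), from -1.79 to 0.17 (median -1.12) in caruncular and -0.84 to 2.02 (median 0.40) in intercaruncular tissue. ZNF385B, a zinc finger protein, was 2.58-fold lower (difference -1.36 ± 0.20, adjusted p = 0.000316 by limma, 10 of 10 cows) and KCNH6, a voltage-gated potassium channel subunit, 2.52-fold lower (difference -1.33 ± 0.20, adjusted p = 0.000372 by limma, 10 of 10 cows). Their levels were -2.90 to -0.70 (median -1.49) in caruncular and -0.96 to 0.65 (median -0.23) in intercaruncular tissue for ZNF385B, and -2.16 to 0.53 (median -1.08) in caruncular and -0.77 to 1.70 (median 0.15) in intercaruncular tissue for KCNH6. ERICH2, which encodes a glutamate-rich protein, was 2.57-fold lower (difference -1.36 ± 0.22, adjusted p = 0.000509 by limma, 10 of 10 cows), with -3.06 to -0.41 (median -1.40) in caruncular and -1.22 to 0.88 (median 0.091) in intercaruncular tissue. These 5 genes were lower in cow P9790, with within-slide differences of -0.90 and -0.98 for DSP, -1.84 and -1.64 for SEC14L3, -2.18 and -1.29 for ZNF385B, -2.01 and -1.46 for KCNH6 and -2.24 and -1.58 for ERICH2. PPARG, a nuclear receptor that binds fatty acids, was measured in 9 cows and was 2.54-fold lower (difference -1.35 ± 0.17, adjusted p = 0.000214 by limma, 9 of 9 cows). Its groups did not overlap, with -0.25 to 0.89 (median 0.46) in caruncular and 0.94 to 2.15 (median 1.89) in intercaruncular tissue, but its within-slide differences were -0.13 and 0.11, and the intercaruncular sample of cow N9786, at 0.94, was the lowest of its tissue.

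No gene was above background in every cow of 1 tissue and in no cow of the other. The 795 probes with the opposite direction in both within-slide pairs included large differences. The following 6 genes were chosen after their values were seen, as the largest of this class with values in all cows and signal above background in at least 5 cows of each tissue. RAP2A, a small GTPase, was 3.81-fold higher in caruncular tissue (difference 1.93 ± 0.26, adjusted p = 0.000246 by limma, 9 of 10 cows), but -0.43 and -0.76 within slides, and its intercaruncular signal was above background in 5 of 10 cows. SNX13, a sorting nexin of endosomes, was 3.73-fold higher (difference 1.90 ± 0.33, adjusted p = 0.000721 by limma, 8 of 10 cows) and -0.46 and -0.36 within slides. In SNX13 the intercaruncular samples of cows N9786 and N9960 lay at -0.084 and 0.48, while the other 8 lay at -1.75 in the median. MOB1A, a kinase activator of the Hippo pathway, was 3.24-fold higher (difference 1.70 ± 0.27, adjusted p = 0.000443 by limma, 9 of 10 cows), and CAMSAP2, which binds the minus ends of microtubules, 3.15-fold higher (difference 1.65 ± 0.19, adjusted p = 0.000153 by limma, 9 of 10 cows). Their within-slide differences were -0.43 and -0.19 for MOB1A and -0.20 and -0.22 for CAMSAP2. SOWAHB, an ankyrin repeat protein, and C1H3orf70 were lower in caruncular tissue, 2.61-fold (difference -1.39 ± 0.19, adjusted p = 0.000257 by limma, 9 of 10 cows) and 2.48-fold (difference -1.31 ± 0.26, adjusted p = 0.00163 by limma, 9 of 10 cows), with within-slide differences of 0.26 and 0.063 for SOWAHB and 0.84 and 0.39 for C1H3orf70.

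The levels of this class differed between the 2 within-slide pairs themselves. Over the 576 probes higher in the 9 cows and opposite in both pairs, the median log2 ratio was 0.35 in caruncular and -0.62 in intercaruncular tissue of the 9 cows. In cow N9786 both tissues were low, at -1.03 and -0.53, and in cow P9790 both were high, at 0.76 and 1.06. Over the 134 higher probes that held in both pairs, caruncular tissue was at 0.43 in the 9 cows, 1.29 in cow N9786 and 0.75 in cow P9790, and intercaruncular tissue at -0.55, -0.034 and -0.44. These medians describe classes chosen by the differences and carry no test.

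Markers of cell types were read next, with 1 probe for each gene. Over the 11445 genes with a symbol, 1325 (11.6%) passed the threshold, 700 (6.12%) higher and 625 (5.46%) lower in caruncular tissue, with a median difference of -0.026. Of these calls, 279 of the 700 higher and 410 of the 625 lower ones kept their direction in both within-slide pairs. The calls came from all 10 cyclic cows, so the value of cow N9786 helped to make each of them. This applies as well to the list members counted below as keeping their direction in both pairs. Of the within-slide pairs, cow P9790 alone did not enter the calls. Ciliated epithelium had the lowest median of all lists: 9 of 11 tested markers were lower in caruncular tissue and 0 higher, with a median difference of -1.23 and within-slide medians of -1.42 and -1.47 in cows N9786 and P9790. The mean log2 ratio of the list ranged from -2.20 to -0.11 (median -0.99) in caruncular and from -0.82 to 1.09 (median 0.049) in intercaruncular tissue. It was lower in caruncular tissue in 9 of 10 cows, the differences of cows N1940 and N9960 being 0.10 and -0.015. TEKT2, a tektin of ciliary microtubules, was 2.34-fold lower (difference -1.23 ± 0.14, adjusted p = 0.000151 by limma, 10 of 10 cows), with -0.95 to -0.028 (median -0.66) in caruncular and 0.034 to 1.35 (median 0.59) in intercaruncular tissue, so that the groups did not overlap, and -0.68 and -0.72 within slides. DNAI1, a dynein intermediate chain of motile cilia, was 2.64-fold lower (difference -1.40 ± 0.25, adjusted p = 0.000881 by limma, 9 of 10 cows), with -1.45 and -1.45 within slides. The other 7 markers past the threshold were DNAAF11, TEKT1, SPAG6, RSPH1, CAPS, ROPN1L and DNAH9. FOXJ1, DNAI2 and HYDIN were among the 5 not tested.

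Glandular secretion, the marker list for uterine glands, had 4 of 14 members lower and 1 higher in caruncular tissue (median difference -0.31). Within slides its medians were 0.25 and -0.49. The mean over the members was lower in caruncular tissue in 9 of 10 cows. In cow N9786 this mean (-0.38) and the median (0.25) had opposite signs, so the direction of the list there depended on the measure. FOXA2, the transcription factor that defines glandular epithelium, was 2.95-fold lower (difference -1.56 ± 0.35, adjusted p = 0.00313 by limma, 8 of 10 cows), with -3.06 to 0.13 (median -1.59) in caruncular and -0.39 to 1.00 (median 0.15) in intercaruncular tissue. It was not lower in cows N1940 (0.38) and N9960 (0.062), the cows in which the ciliated markers barely differed as well, and it held within slides (-3.32 and -1.24). Since FOXA2 was named for its small adjusted p within this list, its direction is no check of the tissue labels. TFF3, a trefoil peptide secreted with mucus, was 2.63-fold lower (difference -1.39 ± 0.27, adjusted p = 0.00129 by limma, 9 of 10 cows, within slides -2.90 and -0.87). Its difference fell short of the threshold without the cow as a block (adjusted p = 0.0926) and by an unpaired t-test (adjusted p = 0.125). SPP1, osteopontin, an adhesive phosphoprotein of gland secretion and of immune cells, went the other way and was 4.03-fold higher in caruncular tissue (difference 2.01 ± 0.48, adjusted p = 0.00428 by limma, 9 of 10 cows, within slides 2.36 and 4.10). Its caruncular ratios spread from -3.58 to 0.86 (median -2.13), and its intercaruncular ratios from -4.56 to -2.30 (median -3.80). Of the general epithelial markers 3 of 22 were lower and 0 higher, with a median of -0.28 and within-slide medians of -0.53 and -0.85. Besides DSP these were KRT18, a keratin of simple epithelia (1.72-fold lower, difference -0.78 ± 0.12, adjusted p = 0.000338 by limma, 10 of 10 cows, within slides -0.75 and -0.81), and CLDN10.

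The stromal markers past the threshold were higher in caruncular tissue. For fibroblasts, 8 of 20 tested markers were higher and 0 lower in caruncular tissue, with a median of 0.48 and within-slide medians of 0.46 and 0.65. The mean ratio of the list was higher in caruncular tissue in 10 of 10 cows and ranged from 0.30 to 0.94 (median 0.68) in caruncular and from -0.060 to 0.44 (median 0.16) in intercaruncular tissue. SNAI2, a mesenchymal transcription factor, was 2.11-fold higher (difference 1.08 ± 0.10, adjusted p = 0.000120 by limma, 10 of 10 cows, within slides 1.09 and 1.15), and POSTN, periostin, a matrix protein of fibroblasts, 2.08-fold higher (difference 1.06 ± 0.11, adjusted p = 0.000124 by limma, 10 of 10 cows, within slides 0.57 and 0.75). The other 6 were LUM, PDGFRA, COL1A1, COL1A2, COL6A3 and SPARC. All 8 kept their direction in both pairs, against 279 of 700 higher calls over all genes. Of the smooth muscle markers 3 of 14 were higher and 0 lower, all 14 had a difference above 0 (median 0.31), and the within-slide medians were 0.66 and 0.83. MYLK, myosin light chain kinase, was 1.72-fold higher (difference 0.78 ± 0.15, adjusted p = 0.00152 by limma, 10 of 10 cows, within slides 1.85 and 1.22). Another MYLK probe, at 0.24 (adjusted p = 0.248 by limma, 6 of 10 cows), fell short of the threshold. PLN, the phospholamban that regulates calcium uptake, was 2.71-fold higher (difference 1.44 ± 0.29, adjusted p = 0.00162 by limma, 9 of 10 cows) but -0.42 and 0.28 within slides. TAGLN was the third.

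**Figure D4:**
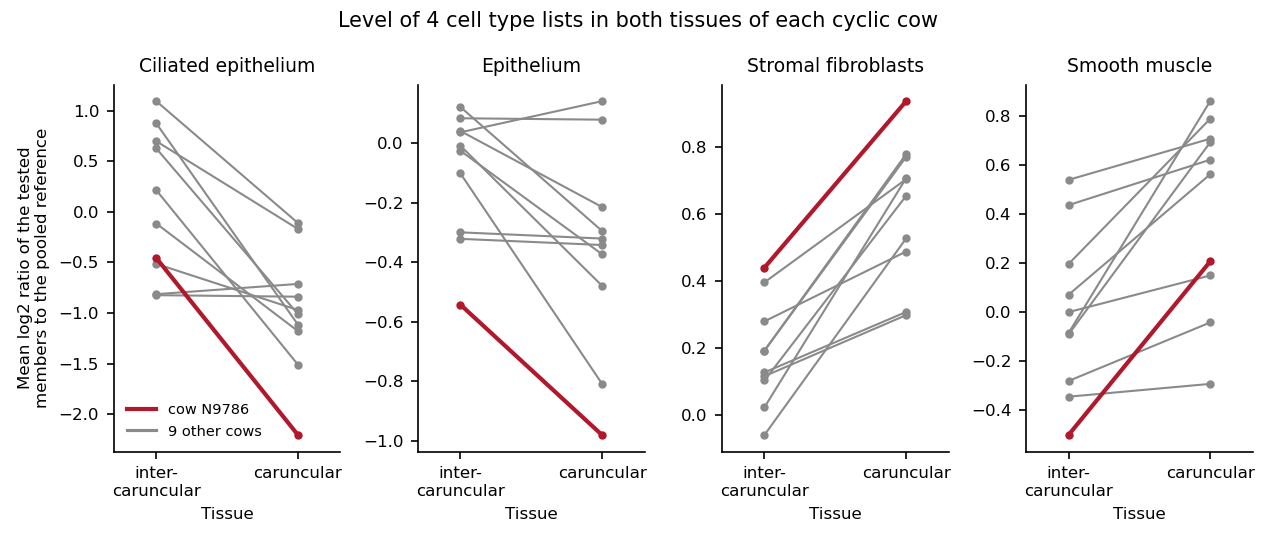
Mean log2 ratio to the pooled reference of the tested members of 4 cell type lists (y axis) in intercaruncular and caruncular tissue (x axis), with 1 line per cyclic cow and cow N9786 in red. Lines for stromal fibroblasts and smooth muscle rise towards caruncular tissue in all 10 cows, and those for ciliated epithelium fall in 9 of 10.

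None of 18 blood vessel markers passed the threshold (median -0.23; within slides -0.31 and 0.30), and PECAM1, an endothelial adhesion molecule, did not pass (difference 0.12 ± 0.084, adjusted p = 0.2497 by limma, 7 of 10 cows, within slides -0.17 and 0.96). Of 4 lymphatic markers 1 passed (median -0.29; within slides 0.22 and 0.18): RELN, reelin, was 1.60-fold lower (difference -0.68 ± 0.14, adjusted p = 0.00223 by limma, 9 of 10 cows, within slides -0.91 and -1.19). Among T and NK cell markers 1 of 14 was lower (median -0.049; within slides 0.15 and 0.21). This was CD3E, a T cell receptor chain, 1.65-fold lower (difference -0.72 ± 0.13, adjusted p = 0.00108 by limma, 9 of 10 cows) but 0.28 and 0.27 within slides, while CD3D and CD3G, chains of the same receptor, had differences of 0.12 and 0.52. Of 6 B and plasma cell markers 1 was higher and 1 lower (median -0.32; within slides -0.013 and -0.024). JCHAIN, the joining chain of secreted antibodies, was 1.58-fold higher (difference 0.66 ± 0.16, adjusted p = 0.00557 by limma, 8 of 10 cows, within slides -0.074 and -0.079), and BLNK, a B cell signalling adaptor, 1.59-fold lower (difference -0.67 ± 0.17, adjusted p = 0.00640 by limma, 8 of 10 cows, within slides -1.71 and -0.63). JCHAIN fell short of the threshold without cow N1940 (0.58), without the cow as a block (adjusted p = 0.4662), with the cow as a random block (adjusted p = 0.147) and by an unpaired t-test (adjusted p = 0.502). BLNK fell short of the threshold without cow N9786 (-0.55).

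None of 12 macrophage markers passed (median -0.14), although the within-slide medians were 0.51 and 0.98. CD14, a receptor for bacterial lipopolysaccharide, did not pass (difference -0.20 ± 0.094, adjusted p = 0.0840 by limma, 8 of 10 cows, within slides -0.19 and -0.22). Of 5 mast cell markers 1 was higher and 2 lower (median -0.55; within slides -0.30 and -0.69). HDC, which makes histamine, was 1.63-fold lower (difference -0.70 ± 0.11, adjusted p = 0.000368 by limma, 10 of 10 cows, within slides -0.24 and -0.69) and CPA3, a granule protease, 1.78-fold lower (difference -0.83 ± 0.17, adjusted p = 0.00191 by limma, 10 of 10 cows, within slides -1.90 and -1.05). KIT, the stem cell factor receptor, was 1.52-fold higher (difference 0.60 ± 0.13, adjusted p = 0.00277 by limma, 9 of 10 cows, within slides 0.27 and -0.20). HDC fell short of the threshold with normexp background correction (-0.38). CPA3 fell short of the threshold by an unpaired t-test (adjusted p = 0.0730). KIT fell short of the threshold without any 1 of cows N3972, N9778, N9813 and N9960 (0.52 at the least), without the cow as a block (adjusted p = 0.0559) and by an unpaired t-test (adjusted p = 0.0764). The mean ratio of the mast cell list was lower in caruncular tissue in all 10 cows. Nerve and Schwann cell markers had 3 of 5 higher and 1 lower (median 0.65), against within-slide medians of -0.058 and -0.033.

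NCAM1, a neural cell adhesion molecule, was 2.25-fold higher (difference 1.17 ± 0.13, adjusted p = 0.000129 by limma, 10 of 10 cows, within slides 0.79 and 0.39). S100B, a calcium-binding protein of Schwann cells, was 1.75-fold lower (difference -0.81 ± 0.17, adjusted p = 0.00191 by limma, 9 of 10 cows, within slides -1.19 and 0.062). Red cells (0 of 2 past the threshold, median -0.35; within slides -0.011 and -0.078) and melanocytes (0 of 1) left little to compare. HBA, alpha globin, did not pass (difference -0.12 ± 0.079, adjusted p = 0.211 by limma, 6 of 10 cows, within slides 0.27 and 0.031) and PMEL, a melanosome protein, fell short as well (difference -0.13 ± 0.097, adjusted p = 0.262 by limma, 8 of 10 cows, within slides 0.61 and 0.34). Of 18 markers of dividing cells 0 passed (median -0.056; within slides 0.14 and 0.16), and TOP2A, the topoisomerase of replicating cells, stayed under 1.5-fold (difference 0.50 ± 0.14, adjusted p = 0.0102 by limma, 7 of 10 cows, within slides 0.86 and 0.69). No member of the conceptus list, 11 symbols of trophoblast products, reached the signal filter. Of its 9 genes on the array, 6 were above background in any cyclic sample, and none in more than 3 of 20.

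Among the pathway lists, genes of the extracellular matrix had the largest share of members called in 1 direction. Of the matrix proteins, 13 of 39 were higher and 1 lower in caruncular tissue, with a median of 0.36 and within-slide medians of 0.41 and 0.53. Of the 13 higher members 12 kept their direction in both pairs, against 279 of 700 higher calls over all genes. The exception was NID1, nidogen, at 1.04 over all cows and -1.16 and -0.29 within slides. The 13 included TNC and COL4A6, and the smallest adjusted p values belonged to FMOD, fibromodulin, a proteoglycan that binds collagen (1.70-fold higher, difference 0.76 ± 0.071, adjusted p = 0.000120 by limma, 10 of 10 cows, within slides 0.84 and 0.80), and COL16A1, a fibril-associated collagen chain (1.79-fold higher, difference 0.84 ± 0.10, adjusted p = 0.000171 by limma, 10 of 10 cows, within slides 0.66 and 0.85). LAMA1, a laminin chain of epithelial basement membranes, was lower (1.73-fold, difference -0.79 ± 0.19, adjusted p = 0.00408 by limma, 10 of 10 cows, within slides -2.05 and -0.75). LAMA1 fell short of the threshold without the cow as a block (adjusted p = 0.0792) and by an unpaired t-test (adjusted p = 0.104).

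Matrix proteases and their inhibitors had 7 of 29 members higher and 0 lower (median 0.18, within slides 0.25 and 0.40). Of the 7, 3 kept their direction in both pairs, against 279 of 700 higher calls over all genes. ADAMTS5, an aggrecan-cleaving protease, was 2.14-fold higher (difference 1.10 ± 0.15, adjusted p = 0.000219 by limma, 10 of 10 cows), with 0.25 and 0.16 within slides. ADAM17, which sheds membrane-bound growth factors and cytokines, was 1.78-fold higher (difference 0.83 ± 0.12, adjusted p = 0.000271 by limma, 9 of 10 cows), with -0.23 and -0.26 within slides, and its value in cow N9786 lay far from those of the other cows. Adhesion molecules had 4 of 26 higher and 1 lower (median 0.054; within slides 0.093 and -0.019). CDH11, the cadherin of mesenchymal cells, was 2.07-fold higher (difference 1.05 ± 0.12, adjusted p = 0.000151 by limma, 10 of 10 cows, within slides 1.18 and 0.53) and ITGB1, the common beta subunit of many integrins, 2.20-fold higher (difference 1.14 ± 0.14, adjusted p = 0.000170 by limma, 10 of 10 cows, within slides 0.41 and 0.39). MUC1, a mucin of the epithelial surface, was 1.76-fold lower (difference -0.82 ± 0.12, adjusted p = 0.000391 by limma, 10 of 10 cows, within slides -1.49 and -0.84).

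The WNT pathway had calls in both directions, 9 of 37 members higher and 4 lower (median 0.19, within slides 0.18 and 0.32). Of the 9 higher members 8 kept their direction in both pairs, against 279 of 700 higher calls over all genes. FRZB and DKK1, secreted WNT inhibitors singled out after their values were seen, had differences of 1.49 and 1.42. Within slides they were at 3.47 and 3.70 for FRZB and 2.42 and 2.32 for DKK1. FZD2, a WNT receptor, was 1.63-fold higher (difference 0.71 ± 0.11, adjusted p = 0.000386 by limma, 10 of 10 cows, within slides 0.54 and 0.23). LGR5, an R-spondin receptor, was 1.87-fold higher (difference 0.90 ± 0.16, adjusted p = 0.000840 by limma, 9 of 10 cows) but -0.0024 and -1.20 within slides. WNT11, a ligand of the non-canonical branch, was 2.29-fold lower (difference -1.20 ± 0.13, adjusted p = 0.000124 by limma, 10 of 10 cows, within slides -1.27 and -0.19) and KREMEN1, a receptor for DKK proteins, 1.79-fold lower (difference -0.84 ± 0.17, adjusted p = 0.00192 by limma, 9 of 10 cows, within slides -0.12 and -0.70).

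Of 7 hedgehog genes 1 was higher and 2 lower (median 0.056; within slides 0.020 and 0.22; below 0 with the filter on cyclic samples and without cow N9960). IHH, the ligand made by uterine epithelium, was 1.79-fold lower (difference -0.84 ± 0.27, adjusted p = 0.0192 by limma, 8 of 10 cows, within slides -2.00 and -0.84). GAS1, a co-receptor, was 1.65-fold higher (difference 0.72 ± 0.19, adjusted p = 0.00865 by limma, 9 of 10 cows, within slides 0.020 and 0.42). IHH fell short of the threshold without the cow as a block (adjusted p = 0.0574) and by an unpaired t-test (adjusted p = 0.0892). In the TGF-beta and BMP pathway 3 of 31 were higher and 0 lower (median 0.15, within slides 0.28 and 0.30). Of the 3, 0 kept their direction in both pairs, against 279 of 700 higher calls over all genes. BMPR1A, a type I BMP receptor, was 1.66-fold higher (difference 0.73 ± 0.075, adjusted p = 0.000124 by limma, 10 of 10 cows, within slides 0.17 and -0.22) and MSTN, myostatin, 1.93-fold higher (difference 0.95 ± 0.18, adjusted p = 0.00118 by limma, 9 of 10 cows, within slides 0.77 and -0.81).

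Growth factors and receptors had 4 of 30 higher and 1 lower. Their median was 0.21 over the 10 cows and -0.049 and -0.087 within slides. PDGFD, a platelet-derived growth factor, was 2.25-fold higher (difference 1.17 ± 0.092, adjusted p = 0.000109 by limma, 10 of 10 cows, within slides 0.80 and 0.21). FGF1, a fibroblast growth factor without a secretion signal, was 2.45-fold higher (difference 1.29 ± 0.21, adjusted p = 0.000488 by limma, 9 of 10 cows), whereas its within-slide differences were -0.69 and -0.21. FGF9, a secreted member of the same family, was 1.57-fold lower (difference -0.66 ± 0.10, adjusted p = 0.000412 by limma, 9 of 10 cows, within slides 0.054 and -0.61). Cow N9786 alone went against the other 9 cows in FGF1 and FGF9.

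Steroid receptors and metabolism had 1 of 20 lower and 0 higher (median -0.0059; within slides -0.12 and -0.065; above 0 without the filter, with the repeat arrays alone and without cow N9813). The progesterone receptor PGR and the oestrogen receptor ESR1 had differences of 0.52 and 0.30 and stayed under 1.5-fold. ESR2, the second oestrogen receptor, was 1.73-fold lower (difference -0.79 ± 0.24, adjusted p = 0.0165 by limma, 7 of 10 cows, within slides -1.68 and -1.07). ESR2 fell short of the threshold by an unpaired t-test (adjusted p = 0.0672). In the prostaglandin pathway 1 of 17 was higher and 2 lower (median -0.058, above 0 without the filter or with the stricter one; within slides -0.084 and -0.11). PLA2G4A, the phospholipase that releases arachidonic acid, was 1.56-fold higher (difference 0.64 ± 0.19, adjusted p = 0.0137 by limma, 8 of 10 cows, within slides -0.084 and -0.82). PLA2G4A fell short of the threshold without any 1 of cows N2970, N3972 and N9778 (0.53 at the least) and by an unpaired t-test (adjusted p = 0.0666). TBXAS1, thromboxane synthase, was 1.54-fold lower (difference -0.62 ± 0.095, adjusted p = 0.000386 by limma, 10 of 10 cows, within slides -0.061 and 0.15). TBXAS1 fell short of the threshold without either of cows N1950 and N9960 (-0.57 at the least), with normexp background correction (-0.51) and by an unpaired t-test (adjusted p = 0.0557). HPGD, which inactivates prostaglandins, was 1.86-fold lower (difference -0.89 ± 0.25, adjusted p = 0.0115 by limma, 8 of 10 cows, within slides -2.30 and -0.76).

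The retinoid pathway had 3 of 21 higher and 1 lower (median 0.0084; within slides 0.036 and 0.24; the sign turned under quantile normalization, without the filter and without any 1 of cows N1950, N3811, N3972 and N9786). RARRES1, a retinoid-induced membrane protein, was 1.67-fold higher (difference 0.74 ± 0.12, adjusted p = 0.000610 by limma, 10 of 10 cows, within slides 1.10 and 1.13). RDH10, which oxidises retinol, was 1.60-fold higher (difference 0.68 ± 0.13, adjusted p = 0.00123 by limma, 9 of 10 cows) but -0.30 and -0.062 within slides. ALDH1A1, a retinaldehyde dehydrogenase, was 2.19-fold lower (difference -1.13 ± 0.21, adjusted p = 0.00106 by limma, 10 of 10 cows, within slides -2.11 and -0.95). Its paralogue ALDH1A2 was among the higher members, at 0.77. Homeobox genes, which pattern the reproductive tract, had 1 of 36 higher and 5 lower (median -0.050, above 0 without cow N3811, and 0.095 and 0.11 within slides). All 6 calls kept their direction in both pairs, against 279 of 700 higher and 410 of 625 lower calls over all genes. HOXA10, required for uterine receptivity in mice, was 1.58-fold higher (difference 0.66 ± 0.15, adjusted p = 0.00379 by limma, 9 of 10 cows, within slides 1.26 and 0.97). HOXA10 fell short of the threshold without cow N3972 (0.57). HOXB5 was 1.62-fold lower (difference -0.70 ± 0.16, adjusted p = 0.00322 by limma, 8 of 10 cows, within slides -0.72 and -0.87) and HOXB2 1.70-fold lower (difference -0.77 ± 0.18, adjusted p = 0.00401 by limma, 9 of 10 cows, within slides -0.41 and -0.51). HOXB6 and HOXB8 were lower as well.

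Genes of vascular growth and tone had 2 of 18 higher and 0 lower (median 0.040, below 0 without either of cows N9786 and N9813; within slides 0.11 and 0.20). CALCRL, the receptor of adrenomedullin, was 2.56-fold higher (difference 1.36 ± 0.16, adjusted p = 0.000163 by limma, 10 of 10 cows) but 0.16 and -0.018 within slides, and AGTR1, the angiotensin II receptor of vessels and stroma, 1.75-fold higher (difference 0.81 ± 0.17, adjusted p = 0.00228 by limma, 10 of 10 cows, within slides 1.39 and 1.08). Nutrient transporters had 2 of 31 higher and 3 lower (median -0.14; within slides 0.0024 and -0.025). SLC2A10, a facilitative glucose transporter, was 1.52-fold higher (difference 0.61 ± 0.079, adjusted p = 0.000207 by limma, 10 of 10 cows, within slides 0.34 and 0.47) and SLC38A4, an amino acid transporter, 1.69-fold higher (difference 0.76 ± 0.16, adjusted p = 0.00200 by limma, 9 of 10 cows, within slides 1.41 and 1.28). SLC2A10 fell short of the threshold without either of cows N9778 and N9960 (0.57 at the least), with normexp background correction (0.46) and with the first array of repeated samples alone (0.57). SLC15A1, a peptide transporter, was 1.78-fold lower (difference -0.83 ± 0.11, adjusted p = 0.000239 by limma, 10 of 10 cows, within slides -0.47 and -0.66), and SLC2A4, the insulin-responsive glucose transporter, 1.65-fold lower (difference -0.73 ± 0.094, adjusted p = 0.000200 by limma, 10 of 10 cows, within slides -0.28 and 0.45).

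Ion and water transport had 5 of 20 members lower and 0 higher (median -0.20; within slides -0.052 and -0.19). SCNN1A, an epithelial sodium channel subunit, was 1.57-fold lower (difference -0.65 ± 0.11, adjusted p = 0.000660 by limma, 9 of 10 cows, within slides 0.042 and -0.042). SCNN1A fell short of the threshold without cow N1940 (-0.58). AQP1, a water channel of vessels, was 1.59-fold lower (difference -0.67 ± 0.13, adjusted p = 0.00139 by limma, 9 of 10 cows, within slides -1.38 and 0.26). AQP1 fell short of the threshold with quantile normalization (-0.52). AQP4, ATP1B2 and SLC34A2, the other 3, were lower within both slides too.

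Complement genes had 2 of 16 higher and 2 lower (median -0.061; within slides -0.065 and 0.10). CD46, a complement regulator of cell membranes, was 1.80-fold higher (difference 0.85 ± 0.13, adjusted p = 0.000422 by limma, 9 of 10 cows) but -0.27 and -0.43 within slides. MASP1, a protease of the lectin pathway, was 2.13-fold higher (difference 1.09 ± 0.39, adjusted p = 0.0316 by limma, 7 of 10 cows, within slides 3.52 and 2.11). MASP1 fell short of the threshold without any 1 of cows N2952, N2970, N3972, N9786 and N9813 (adjusted p up to 0.0747), without the signal filter (adjusted p = 0.0562), by a paired t-test (adjusted p = 0.0647) and by an unpaired t-test (adjusted p = 0.0569). C2, a component of the C3 convertase, was 1.88-fold lower (difference -0.91 ± 0.20, adjusted p = 0.00272 by limma, 9 of 10 cows) but 0.43 and 0.61 within slides, and CFI, a complement inactivator measured in 9 cows, was 1.70-fold lower (difference -0.77 ± 0.21, adjusted p = 0.0109 by limma, 8 of 9 cows, within slides -0.94 and 0.013). CFI fell short of the threshold without the cow as a block (adjusted p = 0.117) and by an unpaired t-test (adjusted p = 0.143).

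Chemokines and cytokines had 3 of 27 higher and 1 lower. Their median was -0.0047, of changing sign under other filters, the slide block or without either of cows N2952 and N9960, and 0.16 and 0.22 within slides. Besides CXCL14, IL1A, an inflammatory cytokine, was 2.27-fold higher (difference 1.18 ± 0.22, adjusted p = 0.00119 by limma, 9 of 10 cows, within slides 0.90 and 1.65), and CCL28, a mucosal chemokine, 1.89-fold lower (difference -0.92 ± 0.24, adjusted p = 0.00747 by limma, 8 of 10 cows, within slides -1.65 and -0.10). IL1A fell short of the threshold by an unpaired t-test (adjusted p = 0.0555). CCL28 fell short of the threshold without the cow as a block (adjusted p = 0.113), with normexp background correction (-0.57) and by an unpaired t-test (adjusted p = 0.152). Of the interferon-stimulated genes 1 of 17 was lower and 0 higher (median -0.19; within slides 0.029 and -0.22). RIGI, a sensor of viral RNA, was 1.501-fold lower (difference -0.59 ± 0.090, adjusted p = 0.000391 by limma, 9 of 10 cows, within slides 0.027 and -0.14). RIGI fell short of the threshold without any 1 of cows N2952, N9778, N9813 and N9960 (-0.53 at the least), with quantile normalization (-0.36), in the deposited matrix (-0.55), with the first array of repeated samples alone (-0.48) and with the slide as a random block (-0.56). Antigen presentation had 0 of 14 past the threshold (median -0.13; within slides 0.042 and 0.091), and BOLA-DRA, a class II chain, stayed under 1.5-fold (difference 0.19 ± 0.075, adjusted p = 0.0469 by limma, 7 of 10 cows, within slides 0.56 and 0.49).

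**Figure D5:**
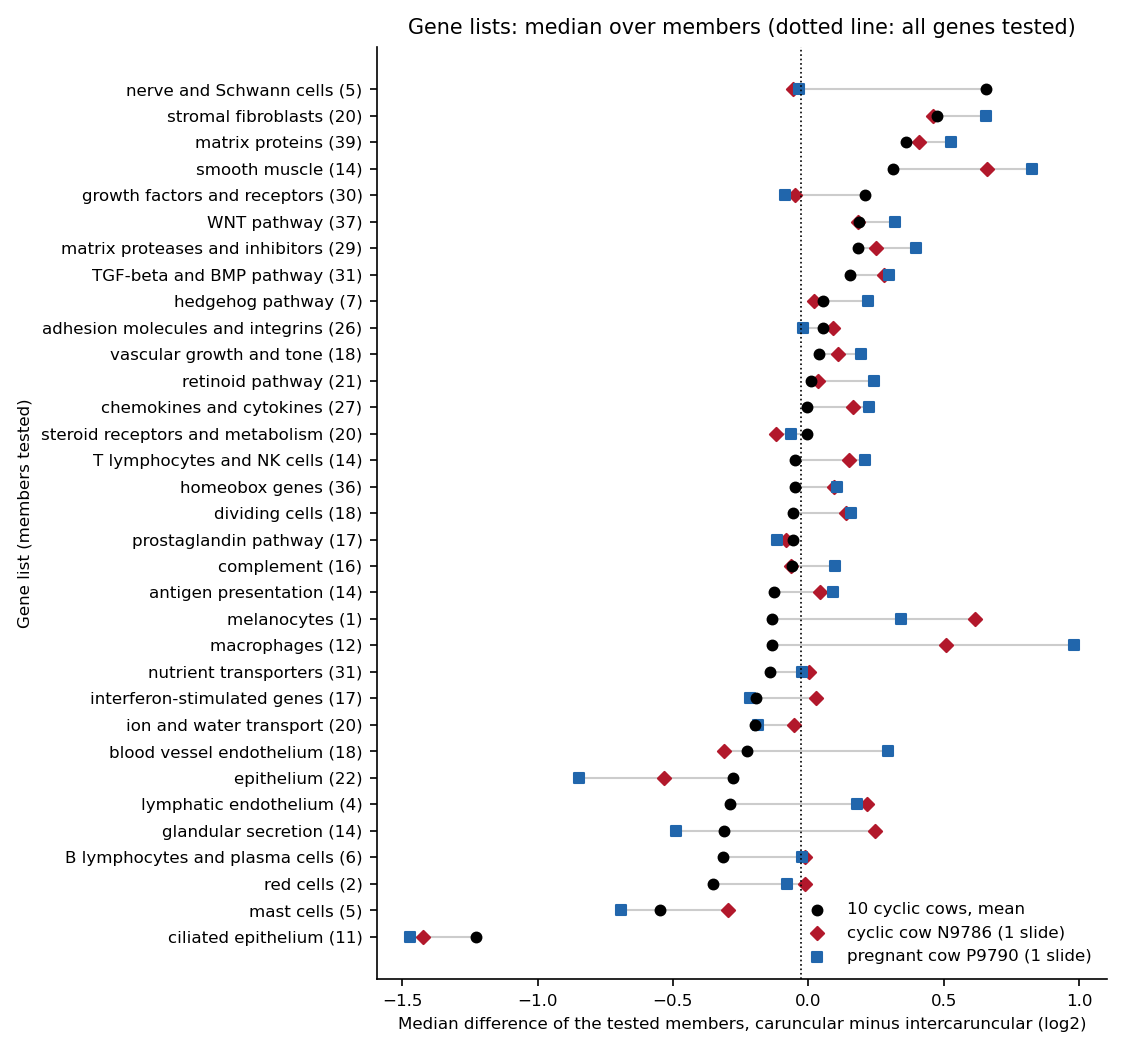
Median caruncular minus intercaruncular difference (log2, x axis) over the tested members of each gene list (y axis, number tested in brackets): black circles are the mean of the 10 cyclic cows, red diamonds cyclic cow N9786 and blue squares pregnant cow P9790, and the dotted line is the median of all genes tested. Ciliated epithelium, stromal fibroblasts and matrix proteins lie on the same side of the line in all 3, while nerve and Schwann cells and macrophages move across or far from it.

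Pregnant cows showed most of these tissue differences too. Of the 1947 probes called in cyclic cows, 1929 had the same direction in the mean of pregnant cows. Of the 2603 probes that passed in pregnant cows, 1555 were called with the same direction in cyclic cows. In 11 of the 12 pregnant cows the intercaruncular arrays were again scanned on day 1 and the caruncular arrays on day 2. In these 11 cows tissue and scan day cannot be told apart either. Cow P9790, with both tissues on 1 slide, kept the direction of 49.8% of the higher and 75.4% of the lower probes. The within-cow difference between the tissues differed between 12 pregnant and 10 cyclic cows in 152 of 14714 probes (1.03%) at an adjusted p under 0.05 (limma, interaction), and 98 of the 152 were more positive in pregnant cows. Of the 1947, 16 were among the 152, 2 higher and 14 lower in caruncular tissue. In 97 of the 152 the mean difference had opposite signs in both states. Of the genes already named by rule, C2 and RIGI had such an interaction. C2 differed by -0.91 in cyclic and 0.40 in pregnant cows (adjusted p of the interaction 0.00741 by limma), and RIGI by -0.59 in cyclic and 0.36 in pregnant cows (adjusted p of the interaction 0.00348 by limma). As a group, the interferon-stimulated genes had a median tissue difference of -0.19 in cyclic and 0.50 in pregnant cows, a contrast that was not tested. Within slides this median was 0.029 in cow N9786 and -0.22 in cow P9790. A further 4 genes from the 152 were chosen after their values were seen. MX2, an interferon-induced antiviral GTPase, differed by -0.044 in cyclic and 1.95 in pregnant cows (adjusted p of the interaction 0.000356 by limma). Within slides MX2 was at 0.14 in cow N9786 and -0.18 in cow P9790. CLDN10, already met among the epithelial calls, differed by -0.74 in cyclic and -1.96 in pregnant cows (adjusted p of the interaction 0.0392 by limma). TCEA3, a transcription elongation factor, differed by -0.43 in cyclic and -1.49 in pregnant cows (adjusted p of the interaction 0.00516 by limma). For NME7, a nucleoside diphosphate kinase family member of cilia and centrosomes, the values were 0.44 in cyclic and -0.73 in pregnant cows (adjusted p of the interaction 0.00976 by limma). Without the cow as a block 3 probes passed. Most slides of days 1 and 2 carried a single state, so that state and slide cannot be told apart for most cows.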

How the data were processed

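The 20 samples of the 10 cyclic cows were read from scanner files, and the 24 of pregnant cows served the signal filter and the interaction. The authors extracted spot intensities with Agilent Feature Extraction, including background subtraction and LOWESS dye normalization array by array. The file headers give version 9.5.3.1 of this software, while the study's methods name an earlier one. The deposited log10 ratios are sample over pool, and they were taken here to log2, averaged over the spots of a probe (usually 2), centred on the median of each array and averaged over repeat arrays. The authors' matrix holds deposited log2 values, checked against the scanner files as the logarithm of mean red over mean green (column medians -0.028 to 0.059, no centring), and served as an alternative. In 41 of 48 columns the difference from the scanner files had an SD under 0.001, and in the other 7 it reached 0.0874. Spots that the software flagged as non-uniform or as outliers were left out of the average, and a probe without any other spot had no value on that array. The software's flag for signal above background served the filter.

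A probe entered the tests if 22 or more of the 44 samples had a signal of 80 units or more that the scanner software marked as above background (14717 of 21475). The tissue comparison used limma 3.58.1 under R 4.3.3, with the cow as a fixed block and a threshold of 1.5-fold together with a p under 0.05 after Benjamini-Hochberg adjustment. The interaction was a limma test of the within-cow differences of 12 pregnant against 10 cyclic cows at an adjusted p under 0.05, and exact sign-flip tests served the array measures. Each cow's deviations from the tissue means were correlated between its tissues (0.11 in cow N9960 to 0.87 in cow N2952). These correlations were not set against those between different cows, so they cannot tell whether a pair was swapped. Scripts were tested on simulated data. Also used were statmod 1.5.0, data.table (1.17.8), Python 3.11.15, pandas 2.3.3, numpy 2.4.6 and matplotlib 3.10.9.

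Symbols came from the reference table of assembly ARS-UCD2.0 by accession (3504 probes) or gene number (9611), from the array's symbol (299) or from its description (3678), and 4383 probes had none. A gene was read from its tested probe with the highest mean signal. Named were the 10 largest differences in each direction with 1 direction in every cow with a value (at least 8 cows) and a signal above background in at least 5 cows of each tissue. Up to 3 genes in each direction above background in every cow of 1 tissue and in no cow of the other were also to be named. Each of 34 lists gave the 2 members in each direction with the smallest adjusted p past the threshold or, where none passed, its first tested member. Members and lists were chosen with earlier results of these data known. The 6 genes opposite within slides, the genes of the interaction and the counts of probes held within slides were chosen after their values were seen. Of the list symbols, DDX58 was read as RIGI, LRRC6 as DNAAF11, TPSB1 as TPSB2 and CXCL1 as GRO1, and PAG1 was left out, since the array uses that symbol for another gene. Results of 3 further list members, which the counts include, are not reported here.

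The alternatives were normexp background correction (offset 50) with loess, no centring, quantile normalization, no filter, a stricter filter (33 of 44 samples), a filter on cyclic samples, the deposited matrix, either array of a repeated sample, no block, the cow or slide as a random block, the scan day as a fixed block, a fit of the 44 samples, paired and unpaired t-tests (the study's methods name a t-test), no minimum fold, another probe of a gene in the lists and each cow left out in turn.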

Additional observations from a re-analysis of the deposited data

Results flagged for a closer look

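In the following results the value of 1 cow lay far from those of the other 9. Chance marks about 1 in 20 groups, and 13 of 101 groups of 10 values were marked. The within-cow difference of cow N9786 stood apart for WWTR1 (0.11), BMPR1A (0.17), FGF1 (-0.69), ADAM17 (-0.23) and CD46 (-0.27). It also stood apart for RAP2A (-0.43), CAMSAP2 (-0.20) and SOWAHB (0.26), which were themselves chosen for their direction in this cow. For FZD2 the value of cow N3972 was far above the others (1.57), and for COL16A1 that of cow N1940 was far below (0.029). The intercaruncular sample of cow N9786 had the highest share of spots above background of its tissue (76.1%) and the highest signal over background (24.4). The same cow had the lowest share of higher probes with the direction of the other cows (39.4%).

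Between the reproductive states, the tissue difference differed in 152 probes by the limma interaction. Among genes named by rule it differed in C2, by 1.32 (pregnant minus cyclic, adjusted p = 0.00741), and in RIGI, by 0.95 (adjusted p = 0.00348).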

How the results depend on the processing

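The 97 named genes gave 2612 results under the alternatives. In 2456 of them direction and side of the threshold were kept, in 133 the gene fell short of it and in 23 the direction turned. The turned ones arose with the scan day as a block, which takes the difference from cow N9786 alone. Those reported here were PLN -0.42, PECAM1 -0.17, CD3E 0.28, JCHAIN -0.074, HBA 0.27, PMEL 0.61, PLA2G4A -0.084, LGR5 -0.0024, FGF1 -0.69, FGF9 0.054, RDH10 -0.30, ADAM17 -0.23, SCNN1A 0.042, CD46 -0.27, C2 0.43, RIGI 0.027, RAP2A -0.43, SNX13 -0.46, MOB1A -0.43, CAMSAP2 -0.20, SOWAHB 0.26 and C1H3orf70 0.84. With this block CXCL14, MYLK and MUC1 alone kept a call among the 97, and the count was 152 (72 higher, 80 lower). By the unpaired t-test 14 of the 97 fell short. Without the scan day block no direction turned in 2515 results. The count of 1947 became 7952 (3825 higher, 4127 lower) at an adjusted p under 0.05 alone, and the interaction count of 152 became 3 without the cow as a block. The cause was not tested. Leaving out 1 cow gave 1712 (without cow N9778) to 2314 (without cow N9786). The other alternatives gave 1546 (normexp) to 2663 (no filter), with 1752 without the cow as a block and 1847 with the slide as a random block (correlation 0.094). The count of 499 held in cow N9786 became 404 with normexp, 436 with the stricter filter, 505 in the deposited matrix and 711 without a filter. Of 33 list medians 13 changed sign with the scan day as a block, 3 without the filter and at most 2 under any other alternative with all cows. The stricter filter left 90 of the 97 genes tested. Signal over background was 8.08 in the weakest intercaruncular and 17.0 in the weakest caruncular sample. Its effect on small differences near background was not tested.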
